A study of Mus musculus with 8 samples.

Results

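Trp53, the gene of p53, and 7 genes whose products hold p53 down or are switched on by it and feed back on it were followed in iGBs, germinal center-like B cells grown in culture. The 8 genes were taken by symbol from the gene table (Trp53, Mdm2, Mdm4, Ppm1d, Ccng1, Trp53inp1, Rfwd2 and Rchy1), and all 8 were found among its 39017 genes. The same symbols were looked up in the tables of splicing events. Splenic B cells of C57BL6/J mice were plated on 40LB cells, irradiated fibroblasts that express CD40L and BAFF, with IL-4 at 1 ng per mL, and were separated from these feeder cells by elutriation at day 4. Both genotypes carried Cγ1-cre, a Cre that B cells express once they are activated. The 4 Prmt5-null libraries (10617, 10618, 10770 and 10771) came from Prmt5F/F Cγ1-cre cells, in which Prmt5 is excised after activation, and the 4 control libraries (CTRL-10370, CTRL-10596, CTRL-10597 and CTRL-10650) from Cγ1-cre cells. Each library was an independent biological sample, as the labels give it.

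p53 is a transcription factor that is kept scarce because Mdm2, a ubiquitin ligase that p53 itself induces, marks it for degradation. Mdm4 binds the same part of p53, blocks its activity and pairs with Mdm2, and the splicing of Mdm4 is known to need Prmt5, an arginine methyltransferase that acts on proteins of the spliceosome. Since p53 is controlled largely at the level of protein, the RNA values below say nothing of how much p53 protein the cells held.

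The libraries held 36731721 to 50366174 reads on genes. Prmt5 itself was at 9.01% to 16.9% of the control mean in the 4 Prmt5-null libraries, and the log2 fold change was -2.98 (SE 0.17, adjusted p = 6.14e-06 in limma). These counts take in transcripts that lack the floxed exon, the one that Cre removes. The mean inclusion of that exon was 0.196 in Prmt5-null and 0.996 in control libraries, so the counts overstate intact Prmt5 RNA. The 5 B cell markers summed to 126686 to 155833 normalized counts in every library, and the 5 T cell markers to at most 19. Of the B cell markers Cd79a, a part of the B cell receptor, was lower in each Prmt5-null library (6939 to 8809) than in each control library (12214 to 14257). The 3 germinal center markers summed to 18156 to 23111 in control and to 24337 to 24984 in Prmt5-null libraries, without overlap, and the 4 plasma cell markers to medians of 40771 and 34872, with overlap. The plasma cell markers did not move together. Irf4 was higher in each Prmt5-null library (14055 to 15374) than in each control library (11263 to 13738). Xbp1, the largest part of the sum, and Prdm1 ran lower in Prmt5-null libraries with overlap, and Sdc1 overlapped as well. The 7 fibroblast markers, which the feeder cells express, summed to 4510 to 7904 (median 6241) in control and to 7004 to 11664 (median 8725) in Prmt5-null libraries, so that the ranges overlapped but the Prmt5-null libraries stood higher. None of these 7 markers was at 0 in all libraries. The 5 myeloid markers summed to 104 to 215 in control and to 171 to 298 in Prmt5-null libraries. In such bulk RNA, a change in the make-up of the culture and a change of RNA per cell cannot be told apart.

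All 8 genes had a mean above that of control in Prmt5-null iGBs, and 5 of them rose (limma, adjusted p below 0.05 over 16250 genes): Ccng1, Mdm2, Trp53, Rchy1 and Ppm1d. None of the 8 fell, and the estimate of each stayed above 0 under all 19 alternatives. Over all genes tested, 6.51% passed this threshold upward and 7.33% downward. These 5 were also the genes whose 4 Prmt5-null values all exceeded the 4 control values, an order that 9.67% of all genes showed. Past a rise of 1.5-fold, as the study required, were 2 of the 8, Ccng1 and Mdm2, beside 3.49% of all genes. In DESeq2, the tool of the study, and in edgeR the count was 3. In limma without Prmt5-null library 10618 or control library CTRL-10370 the count was 0. Without 10771, CTRL-10650 or CTRL-10597 it was 1, and without 10617 or 10770 it was 3. The median log2 fold change of the 8 genes was 0.39, and that of all genes tested was 0.0024. The study itself showed Mdm2, Mdm4, Ppm1d, Ccng1 and Rchy1 for these libraries, so their direction is not independent evidence.

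**Figure D1:**
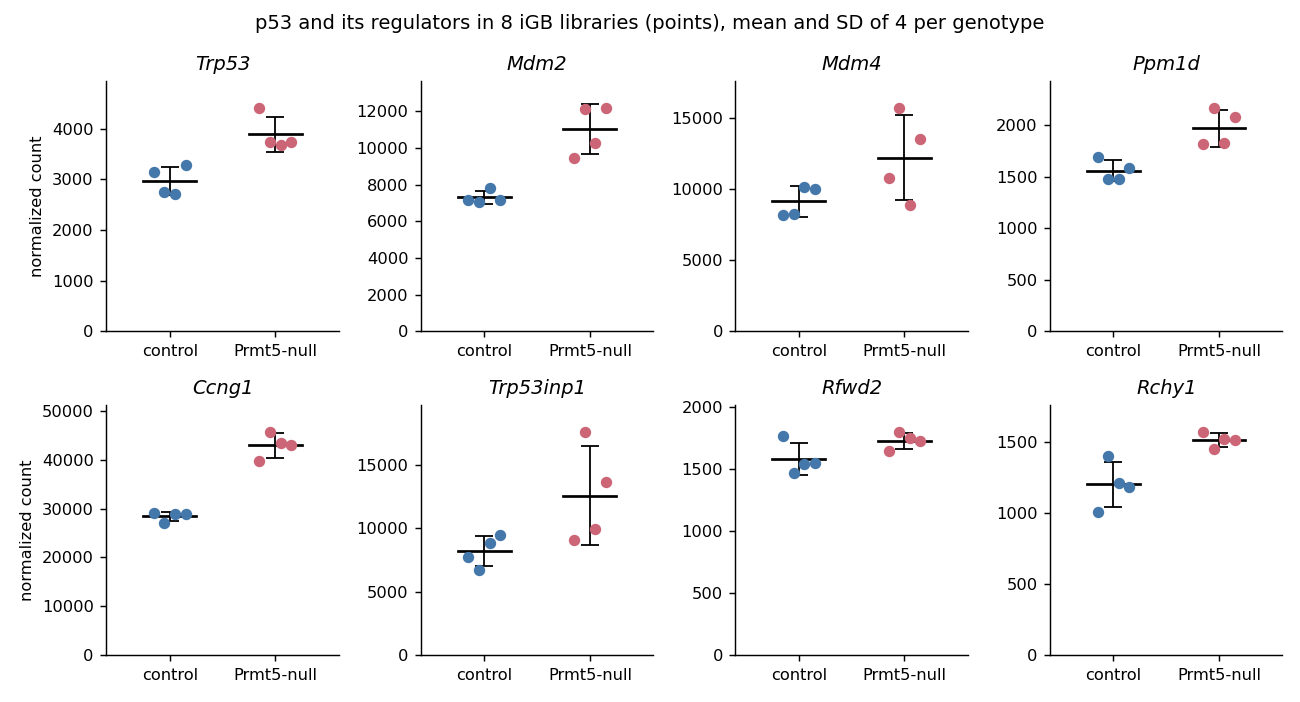
Normalized counts (vertical axes, each from 0) of the 8 genes in 4 control (blue) and 4 Prmt5-null (red) libraries; points are libraries, thick lines means and bars the SD. The 2 genotypes do not overlap for Trp53, Mdm2, Ppm1d, Ccng1 and Rchy1, and they overlap for Mdm4, Trp53inp1 and Rfwd2, where Mdm4 and Trp53inp1 range widely among the Prmt5-null libraries.

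Trp53 lies on the plus strand of chr11:69580359-69591873 (GRCm38). Normalized counts of Trp53 were 3134, 2751, 2702 and 3275 in control libraries CTRL-10650, CTRL-10370, then CTRL-10596 and last CTRL-10597, and 4409, 3733, 3668 and 3733 in Prmt5-null libraries 10617, 10618, 10770 and 10771. The highest control library was thus below the lowest Prmt5-null library, and library 10617 stood above the other 3 of its genotype. The rise was 1.31-fold, with a log2 fold change of 0.39 (SE 0.09, 95% interval 0.19 to 0.59, adjusted p = 0.0143 in limma). Among the 8 libraries, the fibroblast markers were also highest in 10617, with a mean log2 level of 9.81 against 9.11 to 9.43 in the other Prmt5-null and 8.45 to 9.19 in the control libraries. With that level as a covariate the log2 fold change of Trp53 was 0.17 and the call ended (adjusted p = 0.488 in limma). Without library 10617 it was 0.33 (adjusted p = 0.0434 in limma). A processed copy, Trp53-ps, was listed apart at 22.4 to 43.9 normalized counts; since uniquely mapped reads were counted, reads that fit both copies are in neither value. No splicing event of Trp53 was among the deposited ones.

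Mdm2, the ligase, lies on the minus strand of chr10:117688875-117710758. It was at 7159, 7051, 7809 and 7169 normalized counts in the 4 control libraries, in the order given for Trp53. The Prmt5-null libraries had 9461, 12115, 10280 and 12183. The control values were close together, the Prmt5-null values were spread more widely, and the nearest values of the 2 genotypes were well apart. The rise was 1.5-fold, with a log2 fold change of 0.59 (SE 0.09, 95% interval 0.39 to 0.79, adjusted p = 0.00162 in limma). This is almost exactly the 1.5-fold threshold, whose log2 is 0.58, so the count of genes past 1.5-fold turns on small differences, whereas the adjusted p stayed below 0.05 under all 19 alternatives.

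Mdm2 also had a skipped exon event, in which an exon is either kept or left out. The exon of 85 bases at chr10:117709700-117709784 is exon 3 of the annotated transcript of 489 codons and holds its start codon, with 81 coding bases. The deposited inclusion levels, the fraction of transcripts that keep the exon, were 0.616, 0.695, 0.700 and 0.705 in control and 0.470, 0.508, 0.536 and 0.549 in Prmt5-null libraries. The lists of 4 do not name their libraries, and the values are given here from low to high. All 4 control values exceeded all 4 Prmt5-null values, and the means were 0.679 and 0.516. Of the 913 deposited skipped exon events, 49.3% showed no overlap in either direction. By the size of its difference this one ranked 460. Each library gave at least 326 reads for this event, and 3.72% of the deposited skipped exon events had more reads in total. The event was deposited because it differed, so no test is given for it. The 2 exons are shown because they hold the start codons of 2 annotated Mdm2 proteins. The first is the deposited exon and the second, at chr10:117705155-117705229, follows it in the transcript; both are on the minus strand, from GENCODE vM21 transcripts, 5′ to 3′, with the start codons in capitals.
Mdm2 exon 3: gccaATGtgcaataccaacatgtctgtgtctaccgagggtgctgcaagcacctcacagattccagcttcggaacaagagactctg
Mdm2 next exon: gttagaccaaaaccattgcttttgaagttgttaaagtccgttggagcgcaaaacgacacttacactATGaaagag
The second start codon opens the coding part of another annotated transcript, which has 440 codons, lacks the first 49 of the 489 and is otherwise the same. That transcript is no skipped form itself, since it carries a longer form of exon 3 with 131 bases. Both forms begin at the same base, so reads over a junction into that base may belong to either. The inclusion levels are thus not those of the 85-base form alone. The junction that leaves exon 3 out occurs in 3 annotated transcripts, none of which is annotated with a coding part. The start of Mdm2 holds the pocket that binds p53, as background.

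Mdm4 lies on the minus strand of chr1:132959484-133030561. Its levels did not pass the test. The control libraries had 8186, 8224, 10183 and 9977 normalized counts, and the Prmt5-null libraries 10798, 15724, 8874 and 13517. Library 10770 was within the control range, and 10618 and 10771 were the highest of the 8. The log2 fold change was 0.39 (SE 0.15, 95% interval 0.06 to 0.73, adjusted p = 0.115 in limma), the same size as for Trp53 with a wider spread. Without Prmt5-null library 10770 it was 0.54 (adjusted p = 0.0143 in limma), and without 10618 it was 0.26 (adjusted p = 0.217). The remaining Prmt5 count, which includes transcripts without the floxed exon, was also highest in 10618 and 10771. It was at 16.9% and 15.4% of the control mean there, against 11% in 10617 and 9.01% in 10770. The part of Prmt5 in the Mdm4 levels was not tested. The copy Mdm4-ps was listed at 395 to 726 normalized counts, highest in the same 2 libraries.

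Mdm4 was 1 of 3 of the 8 genes with deposited splicing events (Mdm2, Mdm4 and Rfwd2), where 11.4% of 13300 genes with a mean above 50 had any. The skipped exon of Mdm4, 39 bases at chr1:133004654-133004692, is the short form of exon 6, which has 68 bases at chr1:133004654-133004721 in the annotated transcript of 490 codons. The inclusion levels were 0.163, 0.251, 0.287 and 0.341 in control and 0.081, 0.101, 0.121 and 0.128 in Prmt5-null libraries. No Prmt5-null value reached the lowest control value, and the difference of the means was -0.153. Its size ranked 515 among the 913 deposited skipped exon events, of which 49.3% showed no overlap. Both forms of the exon end at the same base and share the junction to the next exon, so reads over that junction cannot be assigned to one form, and these levels are not the inclusion of the 68-base exon. Skipping reads, which join the exon before to the exon after, numbered 664 in the control and 1289 in the Prmt5-null libraries together, beside 301 and 198 inclusion reads. The exon is shown in its long form with the 39 deposited bases in capitals, and below it the junction without the exon, from the last 20 bases of the exon before (chr1:133009137-133009192) to the stop codon, in capitals, that an annotated transcript without exon 6 meets in the exon after (chr1:133003791-133003890). Both are on the minus strand, 5′ to 3′, from GENCODE vM21 transcripts.
Mdm4 exon 6: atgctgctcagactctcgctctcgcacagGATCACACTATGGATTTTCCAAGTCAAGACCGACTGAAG
Mdm4 junction without exon 6: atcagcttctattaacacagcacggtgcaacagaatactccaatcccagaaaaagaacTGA
The stop codon at chr1:133003850-133003852 ends 41 bases after the junction. It closes an open frame of 128 codons, where the full coding part has 490, and that transcript is annotated as a target of nonsense-mediated decay. So is another transcript, which carries the 39-base form and has 141 codons.

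A second Mdm4 event was listed as a pair of mutually exclusive exons, the 56-base exon at chr1:133009137-133009192 (exon 5 of the 490-codon transcript) against the 39-base form. The deposited level of the 56-base exon was 0.781, 0.794, 0.827 and 0.860 in control and 0.895, 0.913, 0.925 and 0.940 in Prmt5-null libraries. Annotated transcripts with the 68-base exon 6 also carry the 56-base exon, so this level is not a share of these 2 forms alone. Every Prmt5-null value was above every control value. Of the 350 deposited events of this type, 46% showed no overlap, and by the size of its difference this one ranked 247. This event and the skipped exon share the junction from the 56-base exon to the exon at chr1:133003791-133003890, so they are 2 readings of largely the same reads and not separate evidence. At least 331 reads per library stood behind this one and at least 205 behind the skipped exon. The study itself reported 2 major skipped exon events of Mdm4 and also measured exon exclusion by RT-PCR, which the values here do not include.

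**Figure D2:**
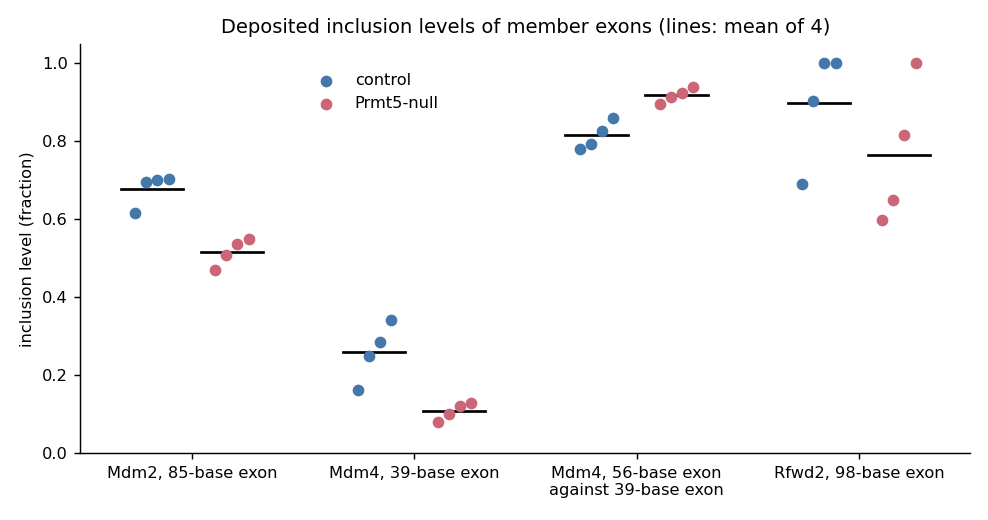
Deposited inclusion levels (vertical axis, fraction from 0 to 1) of 4 events in Mdm2, Mdm4 and Rfwd2; points are the 4 values of each genotype in order of size, and lines their means. The genotypes are apart for the Mdm2 exon (means 0.679 and 0.516) and for both Mdm4 events, and they overlap for Rfwd2. They were also apart in 49.3% of all deposited skipped exon events and in 46% of the mutually exclusive pairs.

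Ppm1d, Ccng1 and Trp53inp1 are induced by p53 and act back on its circuit. Ppm1d is the phosphatase Wip1, which removes activating phosphates from p53 and its kinases, and lies on the plus strand of chr11:85311244-85347066. Its normalized counts were 1691, 1478, 1476 and 1581 in control libraries and 1817, 2169, 1824 and 2079 in Prmt5-null libraries. The 2 ranges did not overlap but came close, with control CTRL-10650 just under the lowest Prmt5-null library. The rise was 1.27-fold, a log2 fold change of 0.34 (SE 0.09, adjusted p = 0.0241 in limma). The call did not survive leaving out Prmt5-null library 10618 (adjusted p = 0.0551 in limma) or 10771 (0.0815), or control library CTRL-10370 (0.0652), CTRL-10596 (0.0721) or CTRL-10597 (0.0515).

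Ccng1, cyclin G1, brings a phosphatase to Mdm2 and had the lowest adjusted p of the 8 genes. It lies on the minus strand of chr11:40748552-40755311. The control libraries had 29099, 27042, 28873 and 28827 normalized counts and the Prmt5-null libraries 39695, 45819, 43485 and 43052. The gap between the genotypes was several times the range within control. The rise was 1.51-fold, with a log2 fold change of 0.59 (SE 0.08, 95% interval 0.43 to 0.76, adjusted p = 0.000496 in limma), and the call held under all 19 alternatives. No splicing event was listed for Ccng1 or Ppm1d.

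Trp53inp1, whose product p53-induced nuclear protein 1 promotes p53 phosphorylation and autophagy, lies on the plus strand of chr4:11156431-11174379. It had 7758, 6717, 8801 and 9456 normalized counts in control libraries and 9047, 17618, 9914 and 13659 in Prmt5-null libraries. As for Mdm4, libraries 10618 and 10771 were the highest, while 10617 lay inside the control range. The log2 fold change of 0.58 was as large as that of Mdm2, but with an SE of 0.18 and a 95% interval of 0.18 to 0.98 it missed the threshold (adjusted p = 0.0576 in limma). It passed in edgeR's quasi-likelihood test (adjusted p = 0.0476) and in DESeq2's Wald test (adjusted p = 0.0102) on the recovered reads. Without library 10618 the log2 fold change was 0.40 (adjusted p = 0.0903 in limma), while it passed without 10617 (0.72, adjusted p = 0.0282) or 10770 (0.68, adjusted p = 0.0311).

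Rfwd2 and Rchy1 are further ubiquitin ligases of p53, known as Cop1 and Pirh2. Rchy1 lies on the minus strand of chr5:91948904-91963068 and had 1007, 1400, 1212 and 1180 normalized counts in control libraries and 1572, 1449, 1520 and 1515 in Prmt5-null libraries. The control library CTRL-10370 came within a small distance of the lowest Prmt5-null library, 10618, and the spread was mostly in control. The rise was 1.27-fold, a log2 fold change of 0.34 (SE 0.10, adjusted p = 0.0396 in limma). The call was lost without any 1 of Prmt5-null libraries 10617, 10770 and 10771 or control libraries CTRL-10650, CTRL-10596 and CTRL-10597, with adjusted p from 0.0518 to 0.0964 in limma; without control CTRL-10650, at the low end, the log2 fold change was 0.26. Of the exonic bases of Rchy1, 680 (18%) overlap exons of the annotated pseudogene Thap6 on the opposite strand. The strand setting of the counting is not given in the sources used here, so reads of the 2 over those bases cannot be told apart.

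Rfwd2 lies on the plus strand of chr1:159232320-159347640, where the annotation names it Cop1. It had 1765, 1470, 1543 and 1550 normalized counts in control libraries and 1647, 1803, 1748 and 1723 in Prmt5-null libraries. Control CTRL-10650 stood among the Prmt5-null libraries. The log2 fold change of 0.13 (SE 0.08, 95% interval -0.04 to 0.31, adjusted p = 0.306 in limma) did not pass the test under any of the 19 alternatives; the interval leaves out a change of 1.5-fold in either direction. A skipped exon of 98 bases at chr1:159244589-159244686, exon 3 of the annotated gene, had inclusion levels of 0.691, 0.905, 1.0 and 1.0 in control and 0.598, 0.651, 0.817 and 1.0 in Prmt5-null libraries. The values overlapped and rested on as few as 9 reads in a library and 119 in all, fewer than 78.0% of the deposited skipped exon events, and a difference in this exon could not be resolved at that depth.

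**Figure D3:**
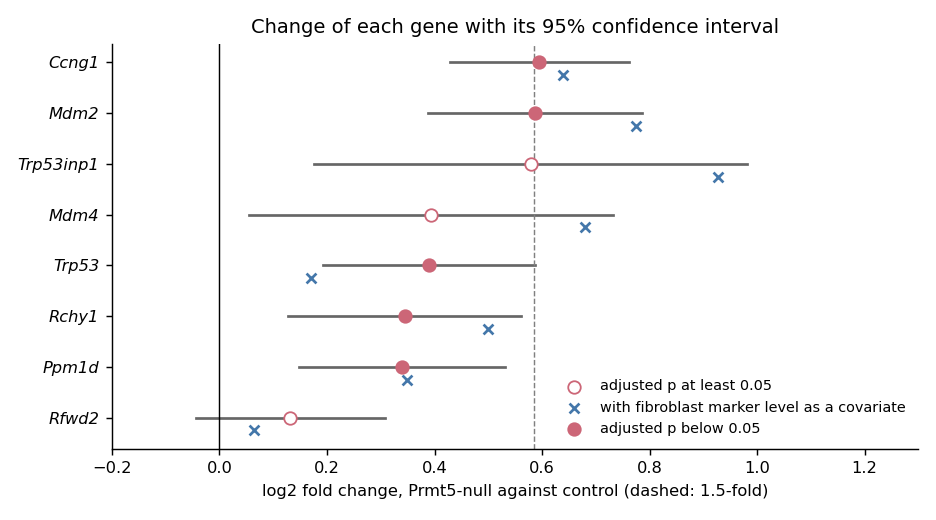
Log2 fold change of each gene between Prmt5-null and control (horizontal axis), with circles for the limma estimate, bars for its 95% confidence interval, filled where the adjusted p was below 0.05, and blue crosses for the estimate with the fibroblast marker level as a covariate. The 5 filled circles lie between 0.34 and 0.59, the dashed line marks 1.5-fold, and the cross of Trp53, at 0.17, lies well to the left of its circle.

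The fibroblast markers moved with the genotype, so each gene was also fitted with their level as a covariate. Ccng1 (log2 fold change 0.64, adjusted p = 0.0202 in limma) and Mdm2 (0.77, adjusted p = 0.0124) stayed past the threshold. Trp53, Ppm1d (0.35, adjusted p = 0.212) and Rchy1 (0.50, adjusted p = 0.0985) did not, and with the covariate 1.71% of all genes passed upward, against 6.51% without it. The estimates of Mdm2, Mdm4 (0.68), Trp53inp1 (0.93) and Rchy1 grew with the covariate, those of Trp53 and Rfwd2 (0.064) shrank, and those of Ccng1 and Ppm1d changed little.

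The promoters of these genes were read from RefSeq (GRCm38.p6), as 300 bases from 250 before to 50 after each start of transcription, for 7 of the 8 genes; Trp53inp1 has no entry. Mdm4 and Rchy1 have 2 such windows each, which gives 9 in all. They were searched for the p53 half-site, the 10-base motif of which a p53 response element has 2 copies; its pattern reads the same on both strands. A half-site was found in 5 of the 9 windows, where 8.36% of the 32851 windows in the table hold one. The windows with a half-site belonged to Trp53, Mdm2, Ppm1d, Ccng1 and 1 of the 2 of Rchy1, which are the 5 genes that rose in the main fit. The calls of Ppm1d and Rchy1 among them were lost when some libraries were left out. A link between a half-site and a rise was not tested. For Rchy1 it was the window at chr5:91962507-91962806, which lies inside the annotated gene. The window over the annotated start of Rchy1, chr5:91963019-91963318, held none. The windows of Mdm4 and Rfwd2 held none. A pair of exact half-sites 0 to 13 bases apart was in none of the 9 windows and in 0.0731% of all. The search allowed no mismatch, so imperfect elements were not counted. In the Ccng1 window the 10 bases directly before the half-site match the pattern at all but 1 base. A full element with 1 mismatch thus stands there and is missing from the count. The well-known p53 elements of Mdm2 lie in its first intron, outside this window. The half-sites are shown because all 5 genes rose, though not in the same order of libraries (Trp53 and Rchy1 were highest in 10617, where Mdm2, Ppm1d and Ccng1 were lowest among the Prmt5-null libraries). Each is given as 50 bases with the half-site in capitals, 5′ to 3′ on the strand of the gene. From the start of transcription that defines its window, the first base of the half-site is at positions -75 (Trp53), -186 (Mdm2), -132 (Ppm1d), -185 (Ccng1) and -90 (Rchy1). A match describes these letters and is no evidence of binding.
Trp53: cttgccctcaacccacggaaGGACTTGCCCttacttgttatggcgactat
Mdm2: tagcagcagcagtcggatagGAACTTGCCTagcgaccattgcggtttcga
Ppm1d: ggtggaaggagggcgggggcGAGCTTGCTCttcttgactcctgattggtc
Ccng1: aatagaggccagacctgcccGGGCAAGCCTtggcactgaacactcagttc
Rchy1: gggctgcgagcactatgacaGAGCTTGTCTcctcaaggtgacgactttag
In order, the windows are chr11:69580264-69580313 (plus strand), chr10:117710915-117710964 (minus), chr11:85311102-85311151 (plus), chr11:40755442-40755491 (minus) and chr5:91962617-91962666 (minus).

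Levels were compared between genes after division by the exonic length of the annotation, in normalized counts per kb. In control, Ccng1 was by far the most abundant at 8104 ± 271 per kb (SD, n = 4). Mdm2 followed at 1436 ± 67.9 and Trp53inp1 at 1264 ± 186, 2 levels whose ranges overlapped. Trp53, at 733 ± 69.9, and Mdm4, at 618 ± 73.4, also overlapped. Below them were Ppm1d at 491 ± 32.2, Rchy1 at 318 ± 42.6 and Rfwd2 at 90.3 ± 7.27 per kb (SD, n = 4 each), each clear of its neighbours. The order of the means was the same in Prmt5-null libraries, where Ccng1 had 12247 ± 719 and Rfwd2 98.8 ± 3.70 per kb (SD, n = 4 each), and there Mdm4 overlapped with both Trp53 and Ppm1d. The level of Mdm2 per kb was thus above those of Trp53 and Mdm4 in both genotypes. With the length of the longest transcript in place of all exons, 4 of the 8 genes kept their place: Mdm4 then stood above Trp53, and Rchy1 above Ppm1d.

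**Figure D4:**
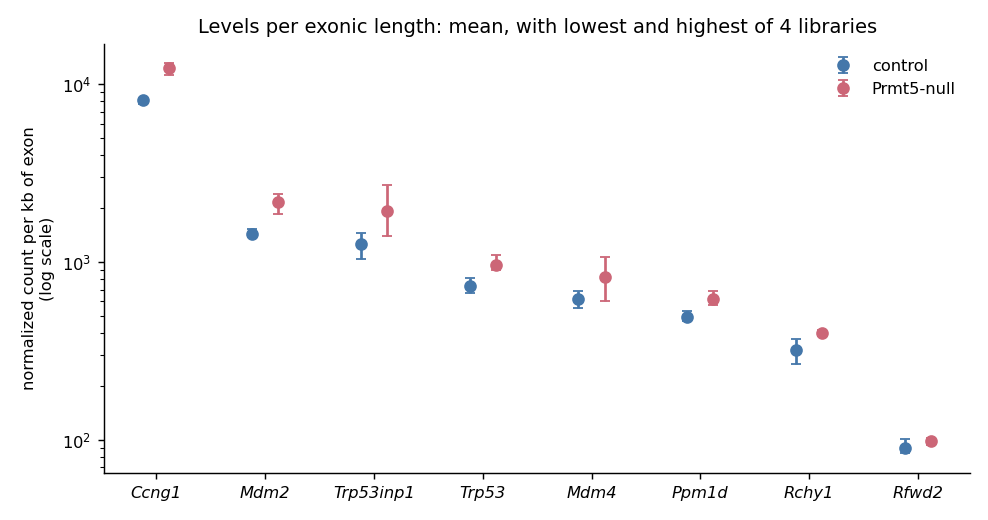
Level of each gene in normalized counts per kb of exon (vertical axis, log scale) in control (blue) and Prmt5-null (red) libraries; points are means and bars run from the lowest to the highest of 4 libraries. Ccng1 stands above all others and Rfwd2 below, with the same order in both genotypes.

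Genes that varied most like Trp53, Mdm2 and Mdm4 over the 8 libraries were found by Pearson's r of log2 levels among 13299 genes with a mean above 50. The 8 points share the difference between the genotypes, so these values describe likeness and carry no test. Closest to Mdm2 was Bbc3 (r = 0.998), which encodes the pro-apoptotic protein Puma and is a p53 target, with 817, 781, 952 and 824 normalized counts in control and 1309, 1800, 1467 and 1875 in Prmt5-null libraries. Its order of libraries within Prmt5-null was the same as that of Mdm2. Pde3b and Nt5dc3 came next (r = 0.994 each). Closest to Trp53 were Ankrd33b (r = 0.986), Eps8 (r = 0.984) and Scap (r = 0.981), which like Trp53 were highest in Prmt5-null library 10617. Closest to Mdm4 were Map4k5 (r = 0.986), Rasgef1b (r = 0.985) and Ddhd2 (r = 0.980), all 3 highest in library 10618 and none past the test (adjusted p from 0.141 to 0.410 in limma).

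The rest of the pathway was read in 6 lists of 77 genes, all of which were tested. Of 28 p53 target genes outside the 8 regulators, 16 rose and 1 fell, where 6.51% of all genes tested rose and 7.33% fell, and the median log2 fold change was 0.57. Past 1.5-fold were 13 of the 28, all upward, beside 3.49% of all genes. The largest rises were those of Perp, a desmosomal protein of p53-dependent apoptosis, at 79.7 ± 18 in control and 411 ± 26.8 normalized counts in Prmt5-null libraries (SD, n = 4 each; log2 fold change 2.38), of Cdkn1a, the cell cycle inhibitor p21, from 595 ± 109 to 1539 ± 261 (SD, n = 4 each; 1.37), and of Eda2r, a death receptor of the TNF family, from 241 ± 34.1 to 615 ± 73.3 (SD, n = 4 each; 1.35). Several of these targets are also shown by the study for these libraries, and the list is no independent evidence. The gene that fell was Trp53i11 (-0.48, adjusted p = 0.0407 in limma), whose call was lost without Prmt5-null library 10771 or control library CTRL-10650, CTRL-10596 or CTRL-10597 (adjusted p from 0.0769 to 0.105). Among the targets that did not pass were Pmaip1, which encodes Noxa (log2 fold change 0.48, adjusted p = 0.0831 in limma), Btg2 (-0.08) and Gadd45a (-0.31); these and Trp53i11 were chosen after their values were seen. Perp, Cdkn1a and Eda2r kept their calls under all 19 alternatives, and with the fibroblast covariate 9 of the 28 targets rose.

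In the other 5 lists 2 genes rose and 3 fell, shares of the 5 lists together that do not exceed the 6.51% and 7.33% of all genes, so nothing is read from them about the lists. Of 11 kinases that signal to p53, Mdm2 or Mdm4, none rose and 2 fell, Atm and Atr, the kinases that open the DNA damage response. Atm was at 6878 ± 696 normalized counts in control and 4987 ± 1020 in Prmt5-null libraries (SD, n = 4 each; log2 fold change -0.48, adjusted p = 0.0308 in limma). Atr was at 4855 ± 298 and 3432 ± 550 (SD, n = 4 each; log2 fold change -0.51, adjusted p = 0.00916). For both genes every Prmt5-null value was under every control value, as for 10.2% of all genes tested. The call of Atm was lost without Prmt5-null library 10617 or any 1 control library (adjusted p from 0.0524 to 0.0866 in limma), that of Atr was not. Of 12 other ubiquitin ligases and deubiquitinases none rose and 1 fell, Stub1, a ligase that works with chaperones (log2 fold change -0.49, adjusted p = 0.00398 in limma). Of 9 proteins that bind and restrain Mdm2, 1 rose, the ribosomal protein gene Rpl11 (0.33, adjusted p = 0.0402), a call lost without Prmt5-null library 10617 or 10771 or any 1 control library (adjusted p from 0.0598 to 0.0983). Of 15 cofactors and modifying enzymes 1 rose, Ppp1r13b, which encodes ASPP1 (log2 fold change 0.46, adjusted p = 0.00632 in limma). With the fibroblast covariate, under which 1.71% of all genes rose and 1.61% fell, Atm, Atr, Stub1, Rpl11 and Ppp1r13b all lost their calls (adjusted p from 0.129 to 0.456 in limma). Their log2 fold changes were then -0.32 for Atm, -0.41 for Atr, -0.40 for Stub1, 0.31 for Rpl11 and 0.45 for Ppp1r13b. Neither Trp63 nor Trp73, the p53 relatives, passed the test (adjusted p = 0.253 and 0.515 in limma). In these 5 lists the medians lay between -0.09 and 0.10, beside 0.0024 for all genes.

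**Figure D5:**
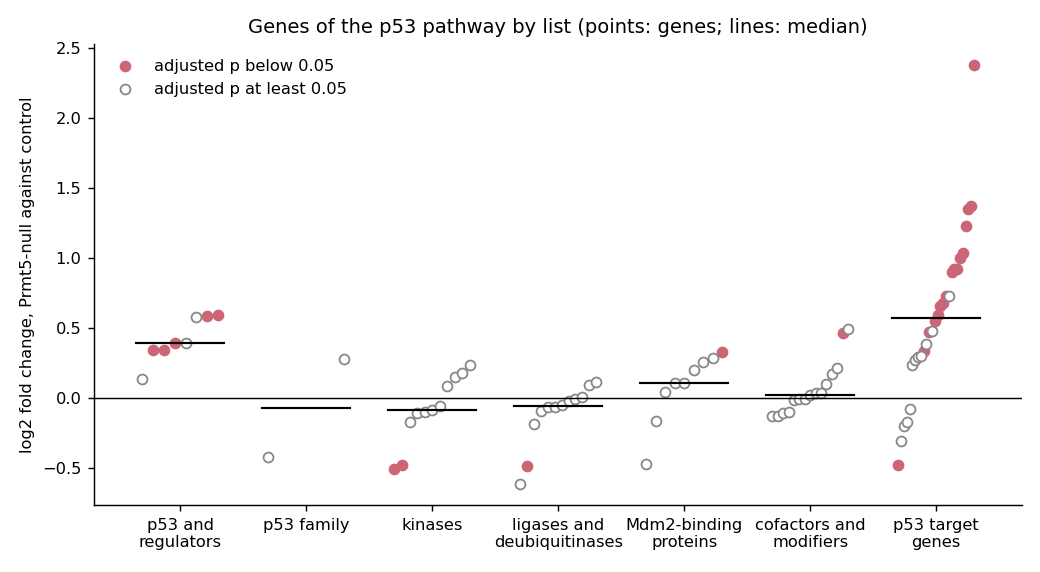
Log2 fold change between Prmt5-null and control (vertical axis) of each gene (points) of p53 and its regulators and of 6 pathway lists, filled where the adjusted p was below 0.05, with the median of each list as a line. The p53 targets reach from -0.48 to 2.38 with a median of 0.57, while the medians of the other 5 pathway lists lie near 0.

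Splicing events were deposited for 12 of the 75 pathway genes with a mean above 50, beside 11.4% of all genes with such a mean. A difference of at least 0.25 in inclusion was seen in 2 of them, on few reads. An alternative 5′ splice site of Trp63 had mean inclusion levels of 0.752 in control and 0.178 in Prmt5-null libraries on 32 reads in all, with as few as 1 in a library. An alternative 3′ splice site of Usp10 had 0.583 and 0.297 on 68 reads, with overlapping values. Neither can be resolved at this depth.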

How the data were processed

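RNA from 4 Prmt5-null and 4 control cultures was sequenced after removal of ribosomal RNA with a stranded kit. Per the labels and the study's methods, the authors trimmed reads with Trimmomatic 0.32, aligned them to mm10 (GRCm38) with STAR 2.3.0e, counted uniquely mapped exonic reads with featureCounts 1.4.4 (strand setting not given in the sources used here) and divided by DESeq2 1.14.1 size factors. The deposited gene values are this normalized signal, called normalized counts here; 100% of values in each library were whole multiples of 1 read (within 0.05), which gave back the reads. Splicing was compared by the authors with rMATS, on reads before trimming. The deposited inclusion levels (fractions) and read counts are lists of 4 per genotype that name no library, with at most 1 event of a type for a gene. The first list was taken as control, from the direction the study states, and the floxed Prmt5 exon has the same order (mean inclusion 0.996 and 0.196). Columns of p-values, FDR and inclusion differences hold the authors' comparisons and were not used.

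Genotypes were compared with limma 3.58.1 (trend; R 4.3.3) on log2(normalized count + 1) over 16250 genes with a mean of at least 10, with Benjamini-Hochberg adjustment; on this scale fold changes of low genes are understated. edgeR 4.0.16 and DESeq2 1.42.0 on the recovered reads were alternatives, beside other pseudocounts, filters, scalings, covariates and leaving out each library. In a test on simulated data (16250 genes, of which 200 were changed), limma found 90% of the 1.5-fold and 99% of the 2-fold changes, with 6 false calls. These shares hold for the simulated spread and need not hold for genes that vary more between libraries or have lower counts. Trp53inp1, at 9047 to 17618 normalized counts in Prmt5-null libraries, had a fold change of 1.49 and missed the threshold (adjusted p = 0.0576 in limma). Tables and sequences were handled in Python 3.11.15 with pandas 2.3.3, with the GENCODE M21 annotation and transcripts of GRCm38 and RefSeq promoters.

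The 8 genes, the lists and the tests were chosen with earlier results of these data known; the lists were written from general knowledge. Pidd1 and Adgre1 were matched by gene ID, since the table names them Lrdd and Emr1. Named were all 8 genes and Prmt5, at most 3 genes of each pathway list with the largest change among those past the threshold, the 3 genes most like each of Trp53, Mdm2 and Mdm4, and pathway genes with an event of at least 0.25. The study had 2 experiments, which no label ties to a library, so experiment was not a covariate.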

Additional observations from a re-analysis of the deposited data

Results flagged for a closer look

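Of the 18 groups of 4 libraries checked (8 genes and Prmt5, in each genotype), 3 held a library whose gap to its nearest neighbour passed Dixon's 95% critical value for 4 values, where chance gives about 1 group in 20. For Trp53, Prmt5-null library 10617 had 4409 normalized counts, with a gap of 0.912 of the range to the others at 3668 to 3733. It was also the library with the highest fibroblast marker level, whose part in this value was not tested. For Mdm2, control library CTRL-10596 had 7809 normalized counts (gap 0.844), above the other control libraries. For Ccng1, control library CTRL-10370 had 27042 normalized counts (gap 0.868), below the other control libraries. Without the library in question the log2 fold changes were 0.33 for Trp53, 0.62 for Mdm2 and 0.57 for Ccng1, each still past the threshold in limma (adjusted p = 0.0434, 0.00489 and 0.00245).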

How the results depend on the processing

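With the fibroblast marker level as a covariate, the log2 fold change was 0.17 for Trp53, 0.35 for Ppm1d and 0.50 for Rchy1, none past the threshold in limma, and 2 of the 8 genes rose in place of 5. Among the 77 pathway genes 9 then rose in place of 18 and 0 fell in place of 4 (targets, 9 and 0 in place of 16 and 1). Without a trend Ppm1d (0.34, adjusted p = 0.0526) and Rchy1 (0.34, adjusted p = 0.0769) missed the threshold in limma, 3 of the 8 genes rose, and 2 pathway genes and 0 targets fell. Without a filter on low values Rchy1 missed it (0.34, adjusted p = 0.0501 in limma). With the second principal component as a covariate Mdm4 (0.31, adjusted p = 0.0413 in limma) and Trp53inp1 (0.49, adjusted p = 0.0219) passed, and Trp53inp1 also passed in edgeR (0.62) and DESeq2 (0.62). Thus 7 of the 8 genes rose with this covariate, where 11.9% of all genes did. In edgeR and in DESeq2 6 of the 8 rose, where 6.77% and 9.38% of all genes did. Of the 8 genes, 1 passed 1.5-fold under quantile normalization and under that covariate, and 3 did in edgeR and in DESeq2. With the longest transcript as length, 4 genes kept their place in the order of levels in control and 4 in Prmt5-null libraries. The cause was not tested for any of these.

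With each library left out in turn, log2 fold changes ran from 0.26 to 0.54 for Mdm4, from 0.29 to 0.38 for Ppm1d, from 0.40 to 0.72 for Trp53inp1 and from 0.26 to 0.42 for Rchy1. From 3 (without PRMT5-10771, CTRL-10596 or CTRL-10597) to 6 (without PRMT5-10770) of the 8 genes rose, and 0 to 3 passed 1.5-fold. From 2 to 5 pathway genes and 0 to 1 targets fell. Mdm2 and Ccng1 kept their calls under all 19 alternatives. Over all genes, 1058 rose and 1191 fell, against 278 and 261 with the fibroblast covariate, 1935 and 1881 with the second principal component and 639 and 735 without PRMT5-10771. The Rfwd2 event gave no value at 20 reads per library. No paired analysis was possible because the 2 genotypes share no replicate number and no label ties a library to 1 of the 2 experiments.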

Other observations

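The level of a gene and the inclusion of its exon can be multiplied for a rough level of transcripts with and without the exon. This is a description only, since the inclusion levels name no library and no error can be given. For Mdm2, the product for transcripts with exon 3 was 4955 normalized counts in control and 5678 in Prmt5-null iGBs, a ratio of 1.15, while for transcripts without it the values were 2342 and 5331, a ratio of 2.28. Reads into the longer form of exon 3 can also count as inclusion here. The ratio of the whole gene, between the same means, was 1.51. For Mdm4, the product with the inclusion level was 2382 in control and 1318 in Prmt5-null (ratio 0.553), and that with the remaining share was 6761 and 10911 (ratio 1.61). The 68-base form of exon 6 shares a junction with the inclusion side and lacks the skipping junction. The Mdm4 products are thus not the levels of the 39-base form or of the form without exon 6.

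Among the p53 pathway genes outside the 8, some exons differed without overlap between the genotypes and on many reads. These were chosen after their values were seen. A 136-base exon of Huwe1, a large ubiquitin ligase that acts on p53, had mean inclusion levels of 0.393 in control and 0.240 in Prmt5-null libraries, with at least 223 reads in each. An alternative 5′ splice site of Trim24, another ligase of p53, had 0.342 and 0.482 with at least 156 reads. A 601-base exon of Aen, a p53-induced nuclease, had 0.730 and 0.818 with at least 556 reads. The authors deposited these events because they differed, so they carry no test here. Among all deposited events, 49.3% of the skipped exons and 51.6% of the alternative 5′ splice sites showed no overlap. Nothing is therefore read from these events about the pathway.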
